A study of Homo sapiens with 6 samples.

Results

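FBXO32, PIK3IP1, TXNIP, KLF9, SESN1, SESN3, IRS2 and INSR are genes known to become more active when signalling through phosphoinositide 3-kinase (PI3K) and the kinase AKT is low, and several of them restrain the same pathway or its branch through mTORC1. They were chosen by name for that knowledge and selected on the strong rise of FBXO32 and PIK3IP1 in these same libraries, so their own differences between the groups are given as a description and no test is drawn from them. All 8 were found among the 23459 genes of the count table by Entrez identifier. The libraries come from MCF10A, an untransformed human mammary epithelial line, in which YAP and TAZ, the transcriptional co-activators of the Hippo pathway, were depleted with small interfering RNAs (siYAP/TAZ, 3 libraries) or which received a non-targeting siRNA (siCtrl, 3 libraries). All cells received 20 nM siRNA and grew in medium with horse serum, insulin, hydrocortisone, cholera toxin and epidermal growth factor, so every library comes from cells under insulin and glucocorticoid. The description of every library carries the label WT, read here as wild type. The time between transfection and harvest was not given for these libraries. The poly(A) ends of transcripts were sequenced with a 3′ kit, which gives about 1 read per transcript whatever its length, so values are counts per 1000000 counted reads (CPM) after TMM scaling, a correction for library composition.

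Insulin and growth factors activate PI3K, which recruits AKT to the membrane, and AKT phosphorylates the FOXO transcription factors and keeps them out of the nucleus. When this input falls, FOXO factors enter the nucleus and switch on genes for protein breakdown, stress resistance and renewed insulin sensing, among them the muscle atrophy ligase gene FBXO32 and the receptor and adaptor genes INSR and IRS2. Several of these genes are also induced by glucocorticoids, and TXNIP answers to glucose through the factor MondoA.

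The group labels of 2 libraries disagree, and they are the libraries with disagreeing labels below. For siCtrl replicate 2 and siYAP/TAZ replicate 2 the sample title and the genotype field name the other group. The groups here follow the description, which matches the column names of the table. The titles also give other replicate numbers to these libraries, to siCtrl replicate 3 and to siYAP/TAZ replicate 1. Replicate numbers here are those of the descriptions too. YAP1, which encodes YAP, was at 189, 204 and 210.3 CPM in siCtrl replicates 1, 2 and 3, the order used for all values here, and at 116.5, 118 and 112 CPM in siYAP/TAZ, so the groups did not overlap. WWTR1, which encodes TAZ, was at 109, 109 and 102 CPM against 70.5, 67.1 and 59.8 CPM. Both fell in edgeR's quasi-likelihood test, YAP1 by 0.80 on the log2 scale (SE 0.12, adjusted p = 0.0138) and WWTR1 by 0.69 (SE 0.13, adjusted p = 0.0311), to 0.575 and 0.618 of their siCtrl means. These levels follow the descriptions of both libraries in question. With the groups of the titles neither passed (edgeR adjusted p = 0.904 and 0.905). The fall of YAP1 lost its call in edgeR without siCtrl replicate 3 (adjusted p = 0.0988) or without siYAP/TAZ replicate 2 (0.0606) or 3 (0.112), and that of WWTR1 lost it when any 1 library other than siCtrl replicate 2 was left out (edgeR adjusted p = 0.0602 to 0.176).

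The first of these libraries bears on every value of the 8 genes. siCtrl replicate 2 stood apart from the other siCtrl libraries: on the first principal component of all tested genes it scored 7.15, against -42.6 and -34.9 for siCtrl replicates 1 and 3 and 9.77 to 33.7 for siYAP/TAZ. It was the highest siCtrl library for 8 of 8 genes, and at least 2-fold above the mean of siCtrl replicates 1 and 3 for 5 of them, compared with 4.32% of the 12510 genes tested. Each gene is therefore given with and without this library; why it differs was not tested. Library totals ran from 3175149 to 4317286 counts, at which 3 counts correspond to 0.680 to 0.992 CPM. The study's methods state in general that experiments used independent biological replicates, but the labels do not say whether these libraries come from separate cultures, so p-values measure the spread between these libraries, which may be technical. Basal epithelial markers, KRT5 above all, were present (summed 1363 to 1789 CPM over 7 genes in siCtrl and 1210 to 1387 in siYAP/TAZ). The 5 luminal markers summed to 142 to 169 CPM in siCtrl and 146 to 149 in siYAP/TAZ, and the 5 fibroblast markers to 157 to 173 and 157.5 to 184 CPM, with COL1A2 and COL3A1 at 0 counts in every library. Nearly all of the fibroblast sum was PDGFRA, at 154 to 170 CPM in siCtrl and 155 to 183 CPM in siYAP/TAZ. The 5 blood and endothelial markers summed to 3.77 to 7.72 CPM in siCtrl and 5.89 to 14.9 CPM in siYAP/TAZ, and their part in the results was not tested. Among them PECAM1 was at 1.72, 1.23 and 1.01 CPM against 3.17, 9.59 and 4.90 CPM. The means of PTPRC, CD68 and VWF were 1.47, 1.24 and 1.23 CPM in siCtrl against 1.30, 0.94 and 1.26 CPM in siYAP/TAZ. In bulk RNA, fewer cells that express a gene and less of its RNA per cell cannot be told apart.

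FBXO32 (Entrez 114907) encodes atrogin-1, the F-box subunit of an SCF ubiquitin ligase that marks muscle proteins for breakdown during atrophy and a classical FOXO target. It lies on chromosome 8 at 124510129 to 124553446, minus strand, of GRCh37, the build called hg19 in the processing notes. Its level was 13.5, 148 and 23.6 CPM after siCtrl and 133, 219.8 and 267 CPM after siYAP/TAZ. siCtrl replicates 1 and 3 were far below every siYAP/TAZ library, but siCtrl replicate 2 was above siYAP/TAZ replicate 1, so the groups overlapped. The group means were 61.9 ± 75.2 and 207 ± 67.9 CPM (SD, n = 3 each), a ratio of 3.34, and without siCtrl replicate 2 the ratio was 11.1. The fitted log2 fold change was 1.75 (SE 0.70) with all libraries, 2.3 (SE 0.46) with the replicate number as a block and 3.46 (SE 0.33) without siCtrl replicate 2. siCtrl replicate 2 held 8.0 times the mean of the other siCtrl libraries.

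**Figure D1:**
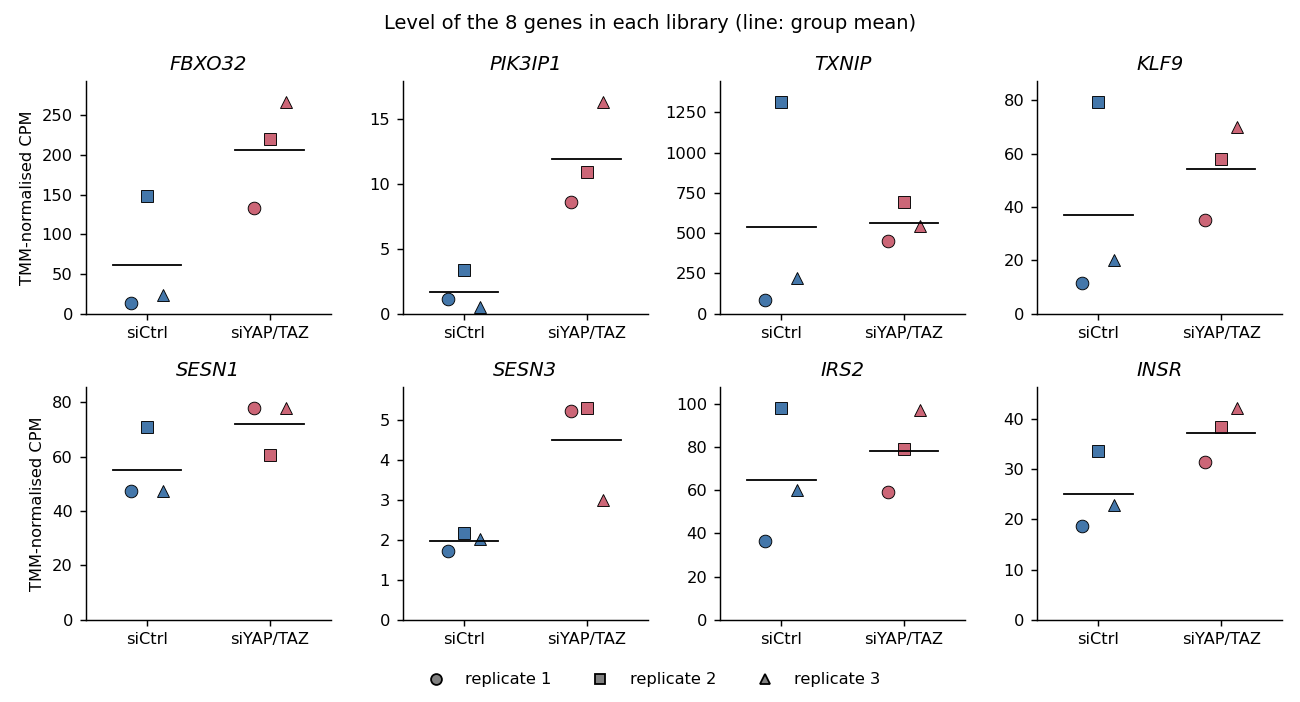
TMM-normalised CPM of the 8 genes (vertical axes, each from 0) in the 3 siCtrl and 3 siYAP/TAZ libraries, with 1 symbol per replicate number and a line at each group mean. The square of siCtrl replicate 2 is the highest siCtrl point in every panel, and in the TXNIP, KLF9 and IRS2 panels it is above all siYAP/TAZ points.

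PIK3IP1 (Entrez 113791; chromosome 22, 31677580 to 31688520, minus strand, GRCh37) encodes a membrane protein that binds the catalytic subunit of PI3K and inhibits it. Its reads were few in siCtrl, with 4, 11 and 2 counts, against 38, 33 and 60 counts in siYAP/TAZ. These are 1.15, 3.39 and 0.503 CPM after siCtrl and 8.61, 10.9 and 16.3 CPM after siYAP/TAZ. All siYAP/TAZ libraries were above all siCtrl libraries, with siCtrl replicate 2 the nearest to them. The means were 1.68 ± 1.52 and 11.9 ± 3.96 CPM, a ratio of 7.10, the highest of the 8 genes. The log2 fold change was 2.86 (SE 0.53), and 3.83 (SE 0.53) without siCtrl replicate 2. siCtrl replicate 3, at 2 counts, was under the level of 3 counts, so the counts in siCtrl limit how closely this ratio is known.

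TXNIP (Entrez 10628; chromosome 1, 145438490 to 145442635, plus strand, GRCh37) encodes an alpha-arrestin that binds thioredoxin and limits glucose uptake. It was the most abundant of the 8 genes and the one whose log2 fold change ranged most when libraries were left out in turn, from -0.44 to 1.89. Its level was 83.0, 1313 and 221 CPM after siCtrl and 453, 694.5 and 546 CPM after siYAP/TAZ. siCtrl replicate 2 was the highest of all 6 libraries, at 8.63 times the mean of siCtrl replicates 1 and 3, while those replicates were below every siYAP/TAZ library. With all libraries the means were 539 ± 674 and 565 ± 122 CPM, a log2 fold change of 0.07 (SE 0.75). The block gave 0.94 (SE 0.48), and leaving out siCtrl replicate 2 gave 1.89 (SE 0.34), a ratio of 3.71 between the means.

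The 250 bases upstream of the start sites of TXNIP, IRS2 and PIK3IP1 are shown. TXNIP and IRS2 are the only genes of the 7 searched that hold a letter match to a FOXO motif there. PIK3IP1, with the highest ratio of the 8 genes, holds none, and neither do KLF9, SESN1, SESN3 and INSR. The sequences are those of RefSeq on GRCh38.p14, written 5′ to 3′ on the strand of the gene. They lie at chr1:145996580-145996829, chr13:109786584-109786833 and chr22:31292535-31292784, all on the minus strand of that build. Capitals mark matches to the searched letters.
TXNIP: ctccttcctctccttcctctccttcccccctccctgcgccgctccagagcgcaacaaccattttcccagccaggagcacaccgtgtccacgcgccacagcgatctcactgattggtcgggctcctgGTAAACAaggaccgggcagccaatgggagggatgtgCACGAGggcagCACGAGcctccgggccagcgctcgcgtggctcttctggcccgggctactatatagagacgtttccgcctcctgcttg
IRS2: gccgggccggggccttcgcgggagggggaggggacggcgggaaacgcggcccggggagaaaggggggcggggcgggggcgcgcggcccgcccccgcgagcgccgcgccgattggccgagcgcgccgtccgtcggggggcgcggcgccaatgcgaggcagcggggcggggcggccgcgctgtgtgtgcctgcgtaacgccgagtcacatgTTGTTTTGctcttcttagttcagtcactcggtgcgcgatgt
PIK3IP1: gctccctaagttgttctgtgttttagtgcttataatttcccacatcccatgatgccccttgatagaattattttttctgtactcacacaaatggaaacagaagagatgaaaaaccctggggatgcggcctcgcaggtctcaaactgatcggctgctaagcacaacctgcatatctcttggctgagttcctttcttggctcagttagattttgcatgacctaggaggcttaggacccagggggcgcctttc

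The letters searched on both strands were the FOXO core GTAAACA, the insulin response element CAAAACAA, the E box CACGTG read by MondoA and its partner, and GGAATG, read by the TEAD factors that carry YAP and TAZ. In the TXNIP sequence GTAAACA begins 124 bases before the start, and CACGAG, an imperfect E box added to the search after the sequences were seen, occurs at 88 and 77 bases before it. In IRS2 the insulin response element stands on the opposite strand as TTGTTTTG, 41 bases before the start. Of the 27305 promoters of this length in the RefSeq set, 2.98% held GTAAACA, 1.46% CAAAACAA, 6.49% CACGTG, 11.9% GGAATG and 5.62% CACGAG. 7 of the 8 genes had a promoter in the set. Of these 7, 1 held GTAAACA and 1 held CAAAACAA, and none held CACGTG or GGAATG in this window. The match is one of letters only. FBXO32 had no entry.

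KLF9 (Entrez 687; chromosome 9, 72999520 to 73029573, minus strand, GRCh37) encodes a Krüppel-like transcription factor that is induced by glucocorticoids and thyroid hormone. Its level was 11.5, 79.3 and 20.1 CPM after siCtrl and 35.1, 57.8 and 69.9 CPM after siYAP/TAZ. As with TXNIP, siCtrl replicate 2 was the highest library of all 6 and the other siCtrl libraries were the lowest. The log2 fold change was 0.56 (SE 0.57) with all libraries, 0.87 (SE 0.36) with the block and 1.76 (SE 0.32) without siCtrl replicate 2.

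SESN1 and SESN3 encode sestrins, stress-induced proteins that hold back mTORC1 through the GATOR complexes. SESN1 (Entrez 27244; chromosome 6, 109305512 to 109416049, minus strand, GRCh37) was at 47.4, 71.0 and 47.2 CPM after siCtrl and 77.7, 60.5 and 77.8 CPM after siYAP/TAZ. siCtrl replicate 2 was above siYAP/TAZ replicate 2, so the groups overlapped, and both libraries are those with disagreeing labels. The log2 fold change was 0.39 (SE 0.19) with all 6 libraries, 0.61 (SE 0.16) without siCtrl replicate 2 and 0.72 (SE 0.15) with both of these left out. SESN3 (Entrez 143686; chromosome 11, 94898677 to 94965705, minus strand, GRCh37) had only 6, 7 and 8 counts after siCtrl, and 23, 16 and 11 counts after siYAP/TAZ. At 1.72, 2.16 and 2.01 CPM against 5.21, 5.29 and 2.99 CPM the groups did not overlap. Its means differed by a ratio of 2.29, and its log2 fold change of 1.18 (SE 0.39) moved little without siCtrl replicate 2 (1.25, SE 0.48), which held 1.16 times the mean of the other siCtrl libraries.

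IRS2 and INSR stand at the entry of the pathway: INSR encodes the insulin receptor and IRS2 an adaptor that couples it to PI3K. IRS2 (Entrez 8660; chromosome 13, 110405042 to 110438930, minus strand, GRCh37) was at 36.5, 97.8 and 60.1 CPM after siCtrl and 58.9, 79.0 and 96.8 CPM after siYAP/TAZ. Its groups overlapped with siCtrl replicate 2 and also without it, the only one of the 8 genes for which this was so. The log2 fold change was 0.27 (SE 0.32), and 0.69 (SE 0.25) without siCtrl replicate 2. INSR (Entrez 3643; chromosome 19, 7112266 to 7294425, minus strand, GRCh37) was at 18.7, 33.6 and 22.9 CPM after siCtrl and 31.5, 38.3 and 42.2 CPM after siYAP/TAZ. Here siCtrl replicate 2 was above siYAP/TAZ replicate 1 and below the other 2. The log2 fold change of INSR was 0.58 (SE 0.23), and 0.84 (SE 0.20) without siCtrl replicate 2.

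Noncoding genes on the opposite strand overlap PIK3IP1, SESN1, SESN3 and IRS2 in the GENCODE annotation of GRCh37. None of them was found in the count table by name, but those named only by an Ensembl identifier could not be matched to its rows. Whether counting used the strand is not given in the sources used here, so reads from either strand cannot be told apart.

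Over the 8 genes the median log2 fold change was 0.57 with all libraries, beside -0.0009 over the 12510 genes tested, 0.91 with the block and 1.51 without siCtrl replicate 2. All siYAP/TAZ libraries exceeded all siCtrl libraries for 2 of 8 genes, PIK3IP1 and SESN3, where 11.0% of genes tested did so. Against siCtrl replicates 1 and 3 alone this held for 7 of 8, where 22.8% of genes did so. Since the genes were selected on this contrast, the counts of those past an adjusted p of 0.05 in edgeR are read as no result. With all libraries 1 of 8 was higher in siYAP/TAZ at that threshold (PIK3IP1), where 0.743% of genes tested were higher and 1.22% lower. With the replicate block 2 of 8 were higher (FBXO32 and PIK3IP1), where 4.66% of genes were higher and 5.44% lower. Without siCtrl replicate 2 there were 6 of 8, all but SESN3 and IRS2, where 6.08% of genes were higher and 6.22% lower. None of the 8 was lower in any of these fits. None of the 8 was past the threshold in edgeR when siCtrl replicate 1 or 3 or siYAP/TAZ replicate 2 or 3 was left out (2 to 3 at an unadjusted p under 0.05), or with the groups of the titles (1 at an unadjusted p under 0.05). The log2 fold change of TXNIP was below 0 in 3 of these fits, at -0.44, -0.31 and -0.10 when siCtrl replicate 1, siCtrl replicate 3 and siYAP/TAZ replicate 2 were left out, and that of IRS2 was -0.011 in the first of them.

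**Figure D2:**
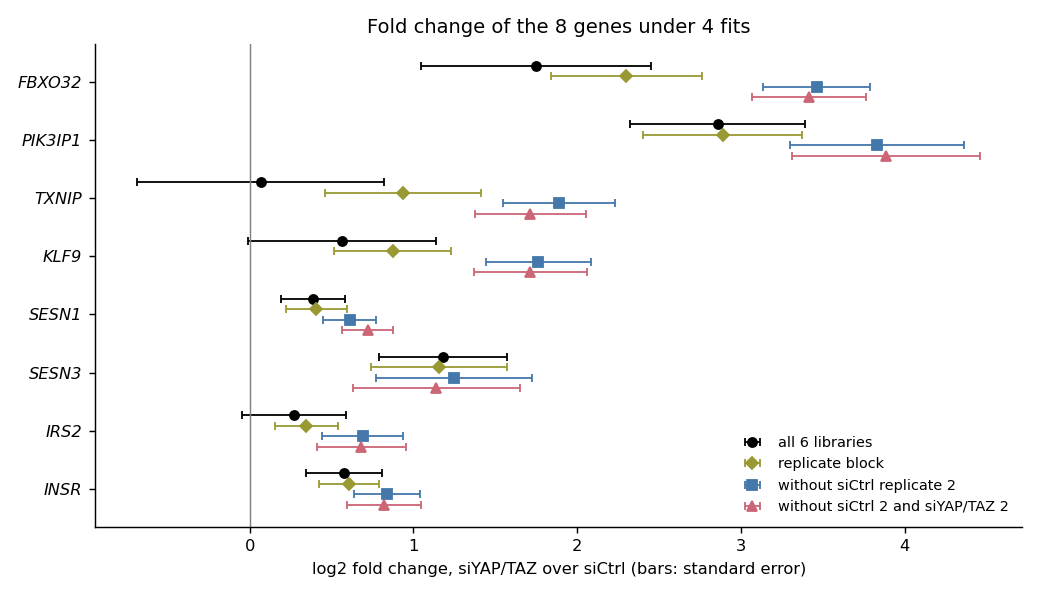
Log2 fold change of siYAP/TAZ over siCtrl for the 8 genes with bars of 1 SE, from edgeR with all libraries, with the replicate block, without siCtrl replicate 2 and without both libraries whose labels disagree. FBXO32 moves from 1.75 to 3.46 and TXNIP from 0.07 to 1.89 when siCtrl replicate 2 is left out, while SESN3 stays between 1.14 and 1.25 in the 4 fits.

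The genes did not share a single pattern over the 6 libraries. Pearson correlations of log2 CPM, a description over 6 libraries that all genes share, were highest between FBXO32 and INSR (0.99), KLF9 and IRS2 (0.96) and TXNIP and KLF9 (0.96). SESN3 was the least like the rest, with 0.29 to IRS2, 0.45 to KLF9 and 0.45 to TXNIP. PIK3IP1, whose siCtrl replicate 2 stayed below all siYAP/TAZ libraries, had 0.91 with FBXO32 and 0.61 with TXNIP. Of the 28 pairs, 15 were over 0.8.

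Among the 7708 genes with a mean of at least 20 CPM, those nearest to FBXO32 by the same measure were CREBRF (0.998), FAAH2 (0.998), FOXO1 (0.997), TMTC1 (0.997) and CNTNAP3 (0.996). CREBRF, which encodes a regulator of the stress factor CREB3, was at 19.2, 109.5 and 30.4 CPM after siCtrl and 89.8, 130.2 and 152 CPM after siYAP/TAZ. It shared with FBXO32 the order of the libraries, with siCtrl replicate 2 between siYAP/TAZ replicates 1 and 2. CNTNAP3 has near-identical copies, so its counts are uncertain. FBXO32 had 527 genes with a correlation over 0.9. The nearest to PIK3IP1 were ERGIC1 (0.997), OVCH1-AS1 (0.997), WASHC2A (0.992), IL6R (0.992) and HIPK2 (0.991), and 328 genes were over 0.9. IL6R, which encodes the interleukin-6 receptor, was at 29.0, 74.7 and 22.9 CPM after siCtrl and 111, 130.2 and 199 CPM after siYAP/TAZ, so that the groups did not overlap. WASHC2A has a close paralogue, so its counts are uncertain, and PIK3IP1 itself was at under 4 CPM in siCtrl.

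**Figure D3:**
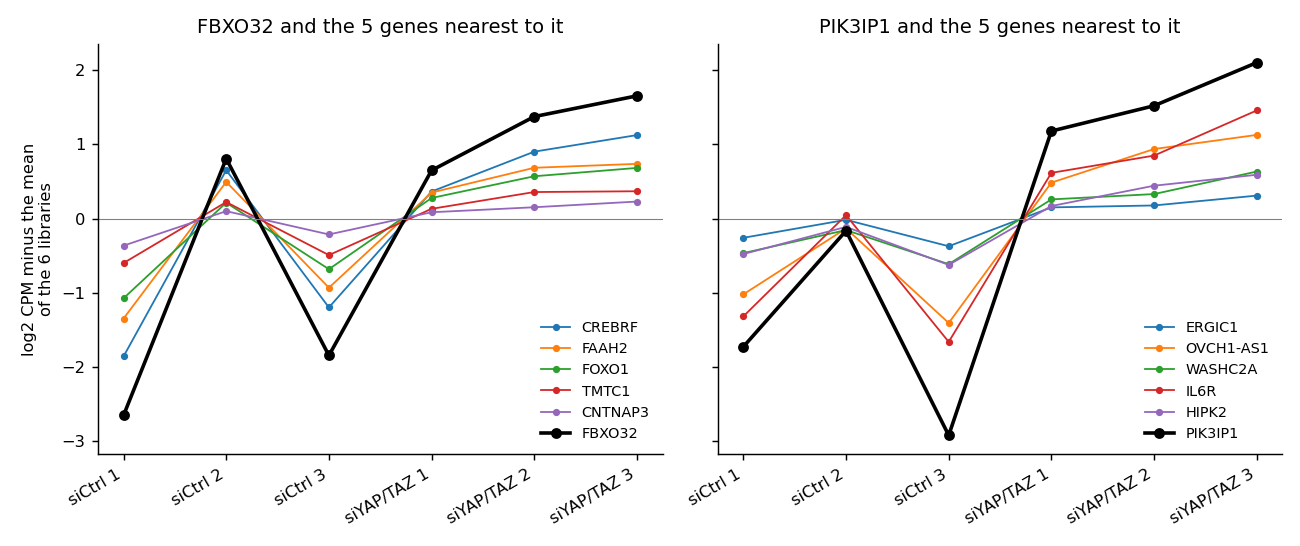
Log2 CPM of FBXO32 and PIK3IP1 and of the 5 genes nearest to each, centred on each gene's mean, in the 6 libraries. Lines only join the points of 1 gene, since libraries have no order, and in the FBXO32 panel siCtrl replicate 2 lies above 0 with the siYAP/TAZ libraries.

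Among the FOXO factors and their other targets, the first of 6 pathway lists described beside the 8 genes, the genes called were almost all higher. With all libraries edgeR called 1 of the 24 tested genes and 0 of the 14 glucocorticoid-responsive genes. With the block 12 of 24 and 7 of 14 passed, and without siCtrl replicate 2 there were 14 of 24 and 8 of 14. That library was at least 2-fold above the mean of the other siCtrl libraries for 8 of the 24 and 6 of the 14. Dropping either other siCtrl library gave 0 calls in both lists, and so did dropping siYAP/TAZ replicate 3. Dropping siYAP/TAZ replicate 1 or 2 gave at most 1 in each. Of 28 genes listed, 27 were in the table and 24 could be tested. BCL2L11, which encodes the pro-apoptotic protein BIM, was the only one to pass with all libraries. It was at 16.9, 25.3 and 18.1 CPM after siCtrl and 48.3, 45.3 and 68.5 CPM after siYAP/TAZ, with no overlap. BCL2L11 rose by 1.43 on the log2 scale (SE 0.23, edgeR adjusted p = 0.0168), a call lost without siCtrl replicate 1 (adjusted p = 0.0602), siCtrl replicate 3 (0.115) or siYAP/TAZ replicate 3 (0.107). With all libraries 0.743% of all genes tested were higher. With the replicate block 11 were higher and 1, GADD45A, was lower, beside 4.66% and 5.44% of all genes. Without siCtrl replicate 2 there were 14 higher and 0 lower (2 lower at an unadjusted p under 0.05), beside 6.08% and 6.22% of all genes. DESeq2 on all libraries called 5 higher and 0 lower (1 lower at an unadjusted p under 0.05), beside 1.88% and 2.47% of the 13301 genes to which it gave an adjusted p. The median log2 fold change of the list was 0.60, and 0.94 without siCtrl replicate 2.

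FOXO1 was the most abundant of the FOXO factor genes, at 130.4, 318 and 171 CPM after siCtrl and 333, 408 and 441 CPM after siYAP/TAZ. All siYAP/TAZ libraries were above all siCtrl libraries, siCtrl replicate 2 falling just short of siYAP/TAZ replicate 1. Its log2 fold change was 0.93 (SE 0.29, edgeR adjusted p = 0.139) with all libraries, 1.02 (adjusted p = 0.00672) with the block and 1.39 (adjusted p = 0.00142) without siCtrl replicate 2. FOXO3 was at 107, 236 and 145 CPM against 192, 274 and 258 CPM and overlapped through siCtrl replicate 2, with a log2 fold change of 0.57 (edgeR adjusted p = 0.303, and 0.0196 with the block). FOXO4 had a log2 fold change of 1.31 and passed neither fit (edgeR adjusted p = 0.168, and 0.120 with the block). It had only 3, 7 and 7 counts after siCtrl and 22, 9 and 14 counts after siYAP/TAZ.

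PDK4 encodes a kinase that turns pyruvate away from oxidation in fasting. It was at 28.4, 75.9 and 15.3 CPM after siCtrl and 422, 95.2 and 180.3 CPM after siYAP/TAZ. The groups did not overlap, but the siYAP/TAZ libraries differed by more than 4-fold among themselves. Its log2 fold change was 2.56 (SE 0.62, edgeR adjusted p = 0.0721, and 0.0156 with the block), and 3.43 (adjusted p = 0.00445) without siCtrl replicate 2. TNFSF10, which encodes the death ligand TRAIL, ULK1, which encodes the kinase that starts autophagy, and SOD2, the mitochondrial superoxide dismutase gene, had log2 fold changes of 1.88, 1.08 and 1.19 and passed in edgeR only with the block or without siCtrl replicate 2 among these 3 fits. SOD2 was at 712, 3552 and 1015 CPM after siCtrl and 2334, 5026 and 4644 CPM after siYAP/TAZ, so siCtrl replicate 2 was above siYAP/TAZ replicate 1 as for FBXO32, and its log2 fold change was 2.22 without siCtrl replicate 2. The cell cycle genes CDKN1B and CCNG2, which encode the inhibitor p27 and an unusual cyclin, had log2 fold changes of 0.32 (edgeR adjusted p = 0.399) and 0.52 (adjusted p = 0.230). TNFSF10 had only 4, 10 and 11 counts after siCtrl and 19, 22 and 54 counts after siYAP/TAZ. The liver FOXO targets PCK1, G6PC1 and IGFBP1 had at most 1 count in any library and were not tested.

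In the insulin, PI3K and AKT list, regulatory subunits and an adaptor of the receptor were the genes called. Of 27 genes listed 25 could be tested, and 3 were higher in siYAP/TAZ and 0 lower (2 lower at an unadjusted p under 0.05; DESeq2 called 3 genes). Over all genes 0.743% were higher and 1.22% lower in this fit, and 1.88% and 2.47% in DESeq2. PIK3R3 and PIK3R2 encode regulatory subunits of PI3K, and GRB10 encodes an adaptor that inhibits the insulin receptor. PIK3R3 was at 28.7, 23.8 and 18.3 CPM after siCtrl and 51.2, 59.8 and 46.2 CPM after siYAP/TAZ. Its log2 fold change was 1.15 (SE 0.20, edgeR adjusted p = 0.0231), and its level in siCtrl replicate 2 lay between those of the other siCtrl libraries, unlike that of the 8 genes. GRB10 was at 39.6, 55.5 and 47.0 CPM against 87.3, 78.0 and 114 CPM, a log2 fold change of 0.98 (SE 0.19, edgeR adjusted p = 0.0337). PIK3R2 was at 42.2, 44.4 and 42.7 CPM against 68.7, 66.1 and 71.5 CPM, a log2 fold change of 0.67 (SE 0.13, edgeR adjusted p = 0.0350). None of these 3 genes overlapped between groups. GRB10 and PIK3R2 lost their edgeR call when any 1 library other than siCtrl replicate 2 was left out, with adjusted p from 0.0606 to 0.180. PIK3R3 lost its call without siCtrl replicate 3 or any 1 of the siYAP/TAZ replicates, with adjusted p from 0.0546 to 0.124.

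The other genes of that list stayed short of the threshold with all libraries. PIK3R1 had a log2 fold change of 0.55 (edgeR adjusted p = 0.263) and was higher with the block (adjusted p = 0.0241). IRS1, the adaptor related to IRS2, went the other way at -1.21 (edgeR adjusted p = 0.284) and was lower with the block (adjusted p = 0.0320), at 8.90, 4.94 and 14.1 CPM in siCtrl against 2.72, 1.65 and 7.62 CPM in siYAP/TAZ. The kinase genes AKT1 and AKT2 had -0.38 (edgeR adjusted p = 0.400) and 0.14 (0.675), and IGF1R, the gene of the related growth factor receptor, had 0.09 (0.864). PIK3CA, the gene of the catalytic subunit, had -0.02 (edgeR adjusted p = 0.98), with a sign that changed between fits. The median log2 fold change of the list was 0.08, and 0.07 without siCtrl replicate 2.

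**Figure D4:**
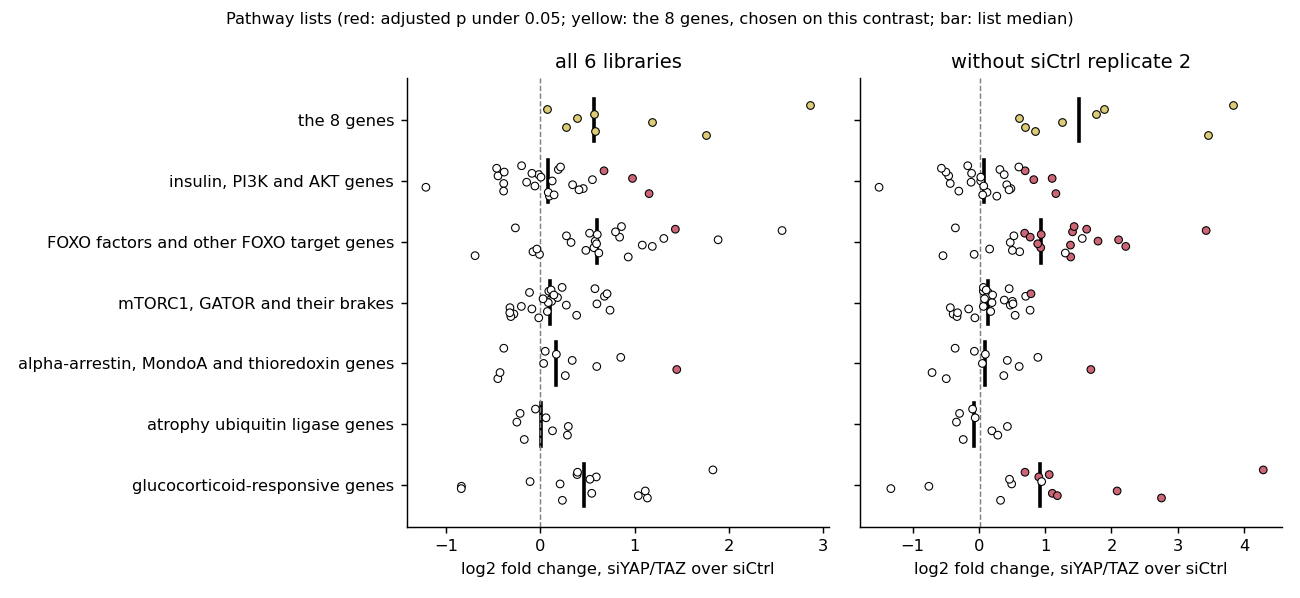
Log2 fold change of siYAP/TAZ over siCtrl of each tested gene in the 8 genes and the 6 pathway lists, with all libraries and without siCtrl replicate 2, 1 point a gene, red where the adjusted p was under 0.05 and yellow for the 8 genes, whose calls are not shown because they were selected on this contrast, and a bar at the median. The medians of the FOXO list (0.60 and 0.94) and of the glucocorticoid list (0.46 and 0.93) move up without that library, whereas that of the insulin, PI3K and AKT list stays at 0.08 and 0.07.

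Genes that answer to glucocorticoids were followed because KLF9 and FBXO32 are among them and the medium holds hydrocortisone. All 14 could be tested, and edgeR called 0 with all libraries. At an unadjusted p under 0.05 there were 5 higher and 1 lower, where 2211 of the 12510 genes tested reached this level in either direction. DESeq2 called 1 higher and 1 lower, beside 1.88% and 2.47% of the genes to which it gave an adjusted p. The block gave 6 higher and 1 lower, beside 4.66% and 5.44% of all genes. Leaving out siCtrl replicate 2 gave 8 higher and 0 lower (2 lower at an unadjusted p under 0.05), beside 6.08% and 6.22%. TSC22D3, which encodes the glucocorticoid-induced leucine zipper GILZ, was at 31.3, 306 and 52.5 CPM after siCtrl and 197, 275 and 380 CPM after siYAP/TAZ. As for FBXO32, siCtrl replicate 2 lay within the siYAP/TAZ range. Its log2 fold change was 1.13 (edgeR adjusted p = 0.425) with all libraries, 1.74 (adjusted p = 0.0443) with the block and 2.75 (adjusted p = 0.000862) without siCtrl replicate 2. FKBP5, which encodes a chaperone of the glucocorticoid receptor, was at 478, 858 and 519 CPM against 918, 976 and 901 CPM, with a log2 fold change of 0.59 (edgeR adjusted p = 0.207, and 0.0201 with the block). SGK1, a kinase related to AKT, ERRFI1, an inhibitor of the EGF receptor, and ZBTB16, which encodes a zinc finger repressor, were higher with the block. Their log2 fold changes in that fit were 1.05, 1.36 and 0.66 (edgeR adjusted p = 0.00124, 0.0139 and 0.0499). With all libraries and no block they were 1.04, 1.11 and 0.54 and did not pass (edgeR adjusted p = 0.0690, 0.275 and 0.431). Without siCtrl replicate 2 ERRFI1 was at 2.09 and ZBTB16 at 1.11. MT2A, a metallothionein gene, was lower with the block at a log2 fold change of -0.86 (edgeR adjusted p = 0.00134), and had -0.84 with no block (adjusted p = 0.107). The receptor gene itself, NR3C1, had 0.23 (edgeR adjusted p = 0.406). siCtrl replicate 2 was at least 2-fold above the other siCtrl libraries for 6 of these 14 genes and 8 of the 24 FOXO genes, and for 0 genes of the other 4 lists.

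Beside TXNIP, the alpha-arrestin ARRDC3, a membrane adaptor that directs receptors to degradation, was the gene called in its list. ARRDC3 was at 35.3, 53.1 and 32.9 CPM after siCtrl and 103, 99.2 and 127 CPM after siYAP/TAZ, with no overlap. It rose by 1.44 on the log2 scale (SE 0.20, edgeR adjusted p = 0.0110), a call lost without siCtrl replicate 3 (adjusted p = 0.0803) or siYAP/TAZ replicate 3 (0.0833). It was 1 of 11 tested genes of the alpha-arrestin, MondoA and thioredoxin list, where 0.743% of all genes tested were higher. With all libraries none of the list was lower at the adjusted or at an unadjusted p under 0.05 in edgeR or DESeq2. The block and leaving out siCtrl replicate 2 each called 1 higher and 0 lower in edgeR, beside 4.66% and 6.08% of all genes higher. Without that library 1 was lower at an unadjusted p under 0.05 in edgeR. ARRDC4, another target of MondoA, had a log2 fold change of -0.39 (edgeR adjusted p = 0.674), and MLXIP, which encodes MondoA, 0.34 (adjusted p = 0.484).

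Beside SESN1 and SESN3, the mTORC1 list held 25 tested genes, of which edgeR called 0 with all libraries. At an unadjusted p under 0.05 there were 4 higher and 0 lower, where 2211 of the 12510 genes tested reached this level in either direction. DESeq2 called 1 higher and 0 lower, beside 1.88% and 2.47% of the genes to which it gave an adjusted p. MIOS, which encodes a subunit of GATOR2, the complex that sestrins bind, was at 39.1, 46.3 and 40.2 CPM after siCtrl and 60.3, 59.5 and 84.9 CPM after siYAP/TAZ. MIOS was higher with the block (log2 fold change 0.70, edgeR adjusted p = 0.0207, against 0.0797 with no block), as was EIF4EBP2, which encodes a repressor of cap-dependent translation (0.60, adjusted p = 0.0371). With the block these 2 were higher and 0 lower (2 lower at an unadjusted p under 0.05), beside 4.66% and 5.44% of all genes. The other sestrin gene, SESN2, had 0.38 (edgeR adjusted p = 0.380), and DDIT4, an inhibitor of mTORC1, had -0.12 (adjusted p = 0.823).

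Beside FBXO32, the ligase list held 8 tested genes, and edgeR and DESeq2 called 0 of them, with 0 at an unadjusted p under 0.05 in either test. It includes SKP1, CUL1 and RBX1, which form the ligase with atrogin-1, and its median log2 fold change was 0.0028. TRIM63, which encodes MuRF1, the partner of atrogin-1 in muscle atrophy, had 0, 2 and 0 counts after siCtrl, and 0, 1 and 0 after siYAP/TAZ, and was not detectable at this depth in 4 of the 6 libraries.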

How the data were processed

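The deposited table holds whole-number read counts per gene, which the authors made from 3′ mRNA libraries of 6 MCF10A samples. The submitters' processing notes name cutadapt 4.2, Bowtie2 2.3.5.1 and hg19; the study's RNA-seq methods name countOverlaps of GenomicRanges as the counter, after another Bowtie2 version, and whether it made this table, the annotation and the use of strand are not given in the sources used here. Entrez identifiers were matched to symbols for 23308 of 23459 genes. Groups followed the descriptions. Genes with enough counts (12510, holding 99.55% of counts) were tested with edgeR 4.0.16 (TMM, quasi-likelihood F test, Benjamini-Hochberg over all genes, R 4.3.3), checked first on simulated data. DESeq2 1.42.0, other scalings and filters, the replicate block, the groups of the titles and leaving out libraries were alternatives. Log2 CPM used a prior count of 2. Libraries with the same replicate number deviated together from their group means (r = 0.42, 0.35 and 0.13 across genes). Pairs with unlike numbers ran from -0.36 to 0.045, so the numbers, from the descriptions, were taken to pair libraries. The titles number some replicates otherwise. These correlations come from the same counts that the block then tests, so they are no independent evidence of pairing. The 8 genes, the lists and the motifs were chosen with earlier results of these data known. Genes named are the 8, YAP1 and WWTR1, at most 6 called genes a list by size of change, a set of pathway genes named whatever their values (1 of them is not reported here), and the 5 genes nearest to FBXO32 and PIK3IP1; GADD45A, genes at or near 0 and markers were named beside their counts. The level of 3 counts covers counting error only.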

Additional observations from a re-analysis of the deposited data

How the results depend on the processing

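The groups are small and 1 siCtrl library stands apart, so counts of calls moved with the libraries used. Over all genes edgeR called 245 with all libraries. DESeq2 called 578, no filter on low counts gave 556, the replicate block 1263, leaving out both libraries with disagreeing labels 1183, and the groups of the titles 0 (464 at an unadjusted p under 0.05). Leaving out libraries in turn gave 16 (without siCtrl replicate 3) to 1579 (without siCtrl replicate 2), with 92 when siCtrl replicate 1 was dropped, and 71 and 18 for siYAP/TAZ replicates 2 and 3. DESeq2 and no filter gave 5 and 6 genes in the FOXO list, 1 and 1 in the mTORC1 list and 2 and 2 in the glucocorticoid list. The block, which changes calls through the replicate numbers that pair the libraries, gave 5, 12, 2 and 7 genes in the insulin, FOXO, mTORC1 and glucocorticoid lists and turned PIK3CA to 0.0435. Leaving out both libraries with disagreeing labels gave 12, 1, 2 and 9 in the FOXO, mTORC1, alpha-arrestin and glucocorticoid lists, and log2 fold changes of 3.42 for FBXO32, 3.89 for PIK3IP1, 1.72 for TXNIP, 1.71 for KLF9, 0.72 for SESN1 and 0.27 for PIK3CA. The groups of the titles gave 0 in the insulin, FOXO and alpha-arrestin lists (0, 6 and 1 at an unadjusted p under 0.05), 1.25 for PIK3IP1, 0.26 for SESN3, -0.26 for YAP1, -0.22 for WWTR1, 0.32 for PIK3CA, 0.079 for DDIT4 and 0.24 for ARRDC4. Leaving out 1 library at a time gave 0 to 4 calls in the insulin list, 0 to 14 in FOXO, 0 to 1 in mTORC1 and alpha-arrestin and 0 to 8 in glucocorticoid, the highest without siCtrl replicate 2. It gave log2 fold changes of 1.27 to 3.46 for FBXO32, 2.39 to 3.83 for PIK3IP1, -0.44 to 1.89 for TXNIP, 0.14 to 1.76 for KLF9, -0.84 to -0.77 for YAP1 and -0.75 to -0.62 for WWTR1. In these fits DDIT4 ran from -0.28 to 0.14 and IGF1R from -0.077 to 0.28, and PIK3CA was above 0 in 2, at 0.077 and 0.38. With a prior count of 0.5, 3 of the 5 genes nearest to PIK3IP1 and 5 of those nearest to FBXO32 were shared. For the pathway genes named, 413 further values kept direction and side of the threshold, 57 passed it, 24 lost it and 10 changed sign. The cause of these changes was not tested. Other scalings, robust dispersion and a mean of at least 50 counts kept all counts of calls over all genes within 1.5 times. The atrophy ligase list had 0 calls in every fit, with at most 1 gene at an unadjusted p under 0.05. Depth limits PIK3IP1, SESN3, FOXO4, TNFSF10 and TRIM63, which lie near the level of 3 counts in siCtrl.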
